A study of Mus musculus with 12 samples.

Results

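The 10 genes described here, Vegfa, Adm, Slc2a1, Hk2, Pgk1, Ldha, Pdk1, Bnip3, Egln3 and Ankrd37, are established targets of the hypoxia-inducible factors (HIF). They were chosen by name as HIF targets, and all 10 are among the 24340 rows of the expression table and among the 18509 rows above 0 in at least 1 library. RNA was sequenced from both retinas of 6 mice (12 to 16 weeks old), 3 days after 1 eye of each mouse had been held at a raised intraocular pressure (IOP) of 85 to 90 mm Hg for 60 min. The untreated eye of the same mouse was the control, so the 12 libraries form 6 eye pairs.

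All 6 mice carried the p16-3MR transgene, in which the regulatory region of p16Ink4a, a gene switched on in senescent cells, drives a 3-part fusion: Renilla luciferase, mRFP (a red fluorescent protein) and the thymidine kinase of herpes simplex virus. The viral kinase turns ganciclovir (GCV) into a toxic product, so GCV is toxic to cells in which this regulatory region is active, and a mouse without the transgene was not part of these groups. The ctrl and IOP groups (mice 3, 4 and 6; n = 3 retinas each) came from mice given buffer in place of GCV. The ctrl-GCV and IOP-GCV groups (mice 1, 2 and 5; n = 3 each) came from mice given GCV at 25 mg/kg once a day for 3 days. Pressure was thus compared between the eyes of a mouse, while GCV was compared between mice.

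HIF is a pair of proteins, an oxygen-regulated alpha subunit and the stable partner ARNT. In normal oxygen, prolyl hydroxylases mark the alpha subunit for destruction through the von Hippel-Lindau protein, and when oxygen falls the alpha subunit accumulates and switches on genes for blood supply, glucose uptake, glycolysis and reduced mitochondrial respiration. In the retina, where photoreceptors consume much oxygen and convert much of their glucose to lactate even in its presence, several of these genes are active without hypoxia, and VEGF made by Mueller glia maintains and remodels the vessels.

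The values were taken as FPKM (fragments per kilobase of transcript, scaled between libraries), a unit inferred from the values. How they were scaled is not given in the sources used here. On that scale, depth was estimated from the smallest steps of the values at 3990000 to 9030000 fragments per library. The IOP library of mouse 6 was the shallowest (3990000 fragments) and held 14844 rows above 0, against 16044 to 16593 in the other 11. Replicates differed most among the IOP retinas, with a median SD per gene of 0.34 on the log2 scale, against 0.12 in ctrl, 0.14 in ctrl-GCV and 0.20 in IOP-GCV. The libraries carried the defining RNAs of retina: the 8 rod markers summed to 30185 to 55784 FPKM. Lens markers were also present, at 7.04 to 40.9 FPKM in ctrl, 106 to 5260 in IOP, 81.6 to 6788 in ctrl-GCV and 3280 to 6610 in IOP-GCV retinas.

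Vegfa fell in IOP-treated retinas and was the only one of the 10 genes whose change passed the test (limma on log2(FPKM + 1), Benjamini-Hochberg adjusted p under 0.05 over all 18509 rows). This was in the comparison of 6 IOP-treated with 6 control retinas, averaged over mice with and without GCV, where 12.2% of all rows passed (5.44% as lower, 6.76% as higher). In that comparison 7 of the 10 genes had a lower and 3 a higher fitted value after IOP elevation, and their median log2 fold change was -0.18, against 0.01 for all rows, and lay between -0.23 and -0.11 with a library left out (-0.11 without the ctrl retina of mouse 6, -0.12 without the ctrl-GCV retina of mouse 1). Split by treatment, none of the 10 passed without GCV, where 1.65% of all rows did, and none passed with GCV, where 1.8% did. Without GCV 8 of the 10 had a lower and 2 a higher fitted value, with a median of -0.17 (0.0 for all rows). With GCV 5 were lower and 5 higher, with a median of 0.0086 (0.0040 for all rows). At an unadjusted p under 0.05, 2 genes were below the threshold without GCV (Vegfa and Pgk1, against 18.9% of all rows, 9.42% as lower), 3 with GCV (Vegfa, Adm and Bnip3, against 19.2%, 9.15% as lower) and 3 in the average of both (Vegfa, Pdk1 and Bnip3, against 30.3%, 16.1% as lower). All of them were lower in IOP-treated retinas.

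**Figure D1:**
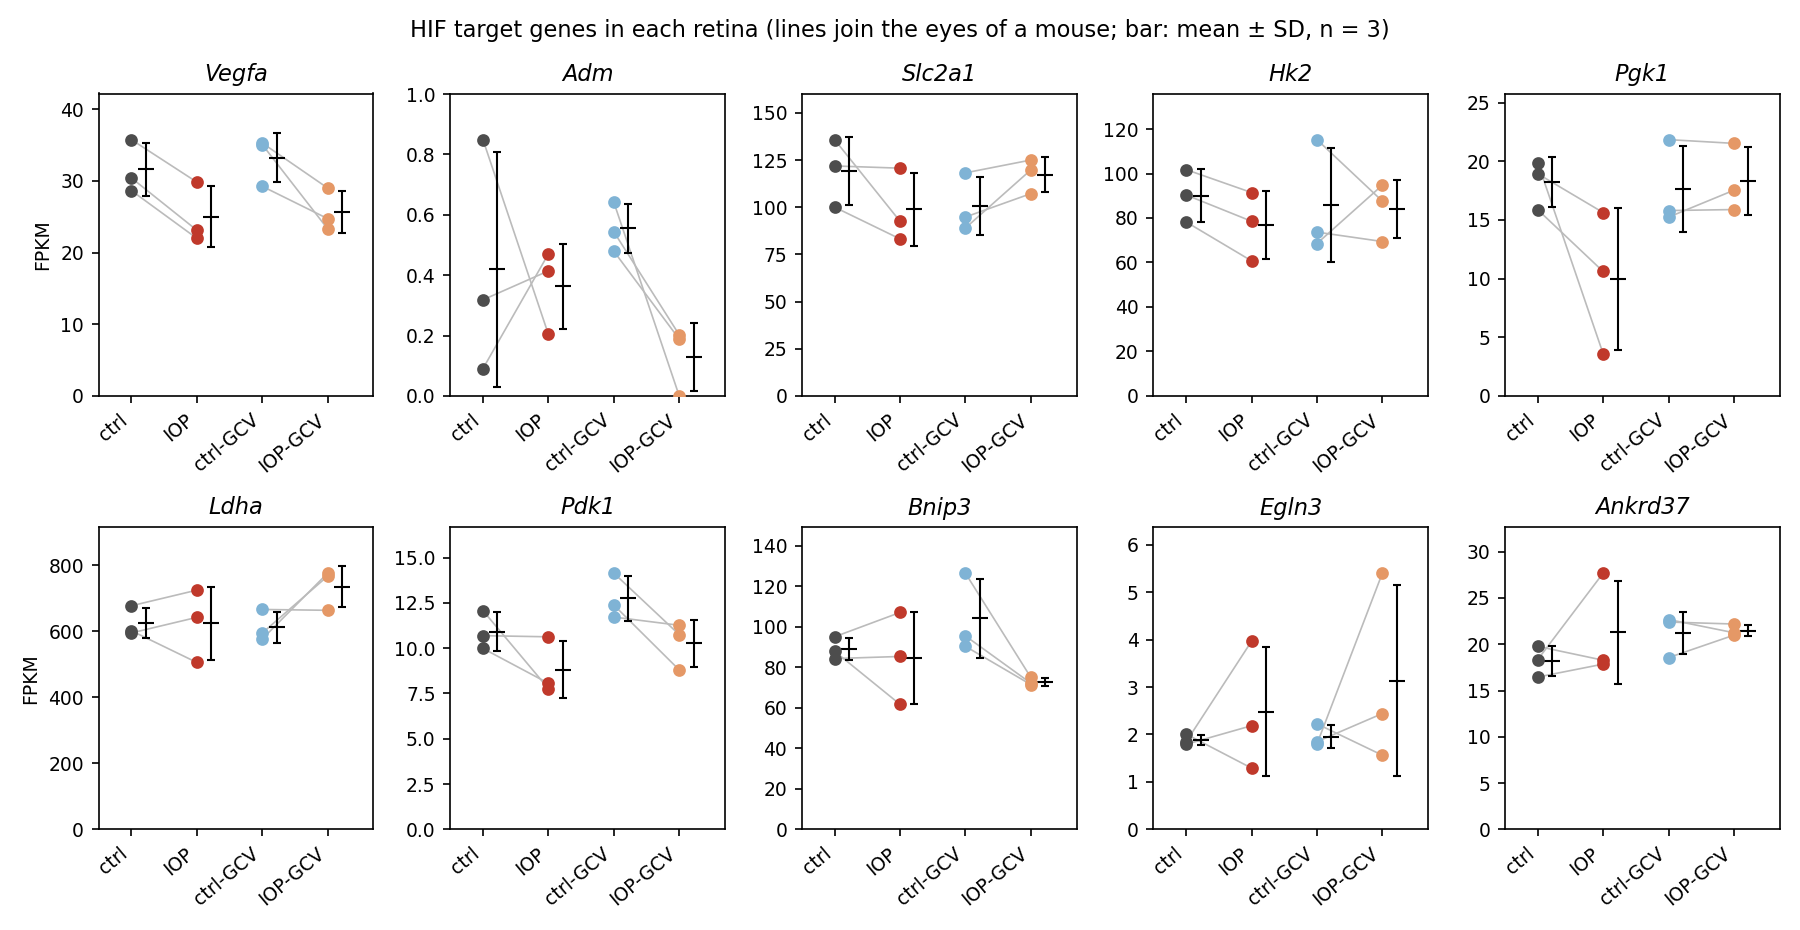
FPKM of the 10 HIF target genes in each of the 12 retinas, by group, on linear axes that start at 0. Points are single retinas, grey lines join the eyes of a mouse and bars give mean ± SD (n = 3). Vegfa lies lower at the IOP end of all 6 lines, the IOP retinas of Pgk1 spread from 3.60 to 15.6 FPKM, and the IOP-GCV retinas of Bnip3 lie together at 71.5 to 75.0 FPKM.

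Vegfa and Adm encode secreted ligands that act on vessels. Vegfa (chr17:46016993-46032377, mm10, minus strand), the main growth factor for retinal endothelium, was at 30.4, 35.8 and 28.7 FPKM in the ctrl retinas of mice 3, 4 and 6 and at 23.1, 29.8 and 22.0 FPKM in their IOP eyes. In mice 1, 2 and 5 it was at 35.3, 35.1 and 29.3 FPKM in ctrl-GCV and at 29.0, 23.3 and 24.7 FPKM in IOP-GCV retinas. The IOP eye was lower in 6 of 6 mice, with changes between -33.5% and -15.4%, and the groups of GCV-treated mice did not overlap, while those without GCV overlapped at 1 IOP retina, that of mouse 4.

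The fitted log2 fold change of Vegfa was -0.35 (SE 0.10, limma adjusted p = 0.0484) over both treatments, which is a level 0.787 times that of control retinas on the FPKM + 1 scale. It was nearly equal without GCV (-0.33, SE 0.14, adjusted p = 0.243) and with GCV (-0.36, SE 0.14, adjusted p = 0.203), and the difference between these effects was -0.03 (95% interval -0.47 to 0.42). The adjusted p lay close to the threshold. When the 12 libraries were left out one by one, the call held in 2 fits, without the IOP retina of mouse 4 and without the IOP-GCV retina of mouse 1, and the adjusted p ranged from 0.0102 to 0.117, with the log2 fold change between -0.41 and -0.30.

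Markers of several cell types moved with IOP elevation in the same libraries. In bulk RNA, fewer cells of a type and less RNA per cell cannot be told apart. Mueller glia, a known source of retinal VEGF, had a summed level over 6 markers of 1117 to 1250 FPKM in ctrl, 671 to 854 in IOP, 1365 to 1545 in ctrl-GCV and 787 to 1035 in IOP-GCV retinas, with Glul and Rlbp1 called lower and Vim called higher (Glul and Vim with the mouse as a block). Retinal ganglion cell markers were called lower for 6 of 8 genes, with sums of 706 to 899 FPKM in ctrl, 170 to 780 in IOP, 903 to 1414 in ctrl-GCV and 267 to 579 in IOP-GCV retinas, and with the mouse as a block 0 of the 8 were called. Lens markers were called higher for 8 of 12 genes, microglia and macrophage markers for 7 of 9, which summed to 48.2 to 89.8 FPKM in control and 255 to 726 in IOP-treated retinas over both treatments, and markers of infiltrating leukocytes for 7 of 8, from 9.28 to 46.9 and from 166 to 2519 FPKM. The 8 endothelial markers (4.85 to 21.7 FPKM over all libraries), the 8 rod markers and the 7 blood markers had no gene called. Their median log2 fold changes over both treatments were 0.04 for endothelium (6 higher, 2 lower), -0.20 for rods (2 higher, 6 lower) and -0.29 for blood (1 higher, 6 lower). The 8 retinal pigment epithelium markers, with Rlbp1 called lower (0 of 8 with the mouse as a block), summed to 244 to 390 FPKM in ctrl, 157 to 375 in IOP, 192 to 450 in ctrl-GCV and 119 to 208 in IOP-GCV retinas. The part of these markers in the Vegfa result was not tested.

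Adm (chr7:110627657-110629820, plus strand), which encodes the vasodilator adrenomedullin, was barely detected. It was at 0.318, 0.0903 and 0.849 FPKM in ctrl, 0.414, 0.470 and 0.204 in IOP, 0.544, 0.642 and 0.479 in ctrl-GCV and 0.202, 0 and 0.188 FPKM in IOP-GCV retinas. These values correspond to an estimated 0 to 9 fragments per library. The IOP-GCV retinas lay below the ctrl-GCV retinas without overlap (log2 fold change -0.46, SE 0.17, limma adjusted p = 0.178), whereas in mice without GCV 2 IOP eyes were higher and 1 was lower than the control eye. With a pseudocount of 0.1 in place of 1, the fold change with GCV was -1.66 on the log2 scale (adjusted p = 0.1745), so its size depends on the pseudocount at this depth.

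The 4 genes of glucose uptake and glycolysis gave no call, and their 95% intervals of the effect over both treatments all included 0. Slc2a1 (chr4:119108745-119137330, plus strand) encodes GLUT1, the glucose transporter of the retinal pigment epithelium, vessels, photoreceptors and glia. It was at 121.9, 100.1 and 135.9 FPKM in ctrl and 120.7, 83.2 and 92.6 FPKM in IOP retinas, and at 118.2, 94.8 and 89.0 FPKM in ctrl-GCV and 125.0, 107.2 and 119.8 FPKM in IOP-GCV retinas. The IOP eye was lower in 3 of 3 mice without GCV and higher in 3 of 3 mice with GCV, although the groups overlapped in both. The test of that difference is given with the interaction.

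Hk2 (chr6:82725025-82774454, minus strand), the hexokinase that binds mitochondria and is found in photoreceptors, was at 90.4, 78.2 and 101.8 FPKM in ctrl, 78.5, 60.7 and 91.4 in IOP, 115.2, 68.5 and 73.6 in ctrl-GCV and 87.6, 94.8 and 69.4 FPKM in IOP-GCV retinas. The IOP eye was lower in 5 of 6 mice, and the groups overlapped with and without GCV. The log2 fold change over both treatments was -0.12 (95% interval -0.46 to 0.22), and lay between -0.19 and -0.0061 with a library left out, the latter without the ctrl-GCV retina of mouse 1.

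Pgk1 (chrX:106187100-106203699, plus strand), which encodes phosphoglycerate kinase, the first ATP-yielding step of glycolysis, was at 18.9, 15.9 and 19.9 FPKM in ctrl and 15.6, 10.6 and 3.60 FPKM in IOP retinas. With GCV it was at 15.2, 21.8 and 15.8 FPKM in control and 17.5, 21.5 and 15.9 FPKM in IOP-treated retinas. The IOP group lay below ctrl without overlap, with the value of the shallow mouse 6 library far below the rest, and the GCV groups covered the same range. Without GCV the log2 fold change was -0.995 (SE 0.38, limma adjusted p = 0.219), and it was -0.46 (adjusted p = 0.358) when the IOP retina of mouse 6 was left out. With GCV it was 0.06 (SE 0.38).

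Ldha (chr7:46842274-46855627, plus strand), the lactate dehydrogenase subunit that favours lactate formation, was the most abundant of the 10 genes. It was at 677, 601 and 594 FPKM in ctrl, 724, 505 and 642 in IOP, 666, 576 and 594 in ctrl-GCV and 663, 775 and 766 FPKM in IOP-GCV retinas. It was higher in the IOP eye of 4 mice and lower in that of 2. The log2 fold change over both treatments was 0.12 (95% interval -0.16 to 0.41, limma adjusted p = 0.560). It lay between 0.07 and 0.20 with a library left out and between 0.03 and 0.12 under the other settings.

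The values of Pgk1, and of Bnip3 among the genes that follow, carry a limit of counting. Of the 50-base stretches of their transcripts, 68.0% in Pgk1 and 59.1% in Bnip3 also occur in other annotated genes, among them pseudogenes, against 11.4% in Ankrd37, 10.4% in Ldha, 1.6% in Slc2a1, 0.2% in Vegfa and none in Adm, Hk2, Pdk1 and Egln3. How fragments that match several genes were counted is not given in the sources used here, so the levels of Pgk1 and Bnip3 are uncertain.

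Pdk1 and Bnip3 act on mitochondria. Pdk1 (chr2:71873215-71903858, plus strand), a kinase that inactivates pyruvate dehydrogenase and so keeps pyruvate from being oxidised, was at 9.99, 10.7 and 12.1 FPKM in ctrl and 8.06, 10.6 and 7.77 FPKM in IOP retinas. It was at 14.1, 12.4 and 11.7 FPKM in ctrl-GCV and 10.8, 8.80 and 11.3 FPKM in IOP-GCV retinas. As for Vegfa, the IOP eye was lower in 6 of 6 mice and the GCV groups did not overlap, but the change was small in mouse 4 (-0.594%) and mouse 5 (-3.88%). The log2 fold change was -0.29 (SE 0.10, 95% interval -0.52 to -0.06, limma adjusted p = 0.0887) over both treatments, -0.29 without GCV and -0.29 with GCV. When the 12 libraries were left out one by one, Pdk1 over both treatments passed in 1 fit, without the IOP retina of mouse 4. Its adjusted p ranged from 0.0231 in that fit to 0.185, and was 0.143 with the mouse as a block.

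Bnip3 (chr7:138890836-138909506, minus strand), which encodes a protein of the outer mitochondrial membrane that promotes mitophagy, was at 88.0, 84.3 and 95.1 FPKM in ctrl and 61.7, 85.4 and 107.1 FPKM in IOP retinas. In GCV-treated mice it was at 126.5, 90.4 and 95.5 FPKM in control and 75.0, 71.5 and 72.2 FPKM in IOP-treated retinas. The IOP-GCV retinas lay below the ctrl-GCV retinas without overlap, with changes between -40.7% and -20.9% within a mouse, while the IOP retinas reached to both sides of ctrl. The log2 fold change was -0.49 with GCV (SE 0.18, limma adjusted p = 0.185), -0.11 without GCV (SE 0.18, adjusted p = 0.776) and -0.30 over both (SE 0.13, adjusted p = 0.152).

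The last 2 genes take part in oxygen sensing or act in the nucleus. Egln3 (chr12:54178981-54203874, minus strand) encodes the prolyl hydroxylase PHD3, which is induced by HIF and in turn limits it. It was at 1.84, 1.79 and 2.01 FPKM in ctrl, 3.96, 2.18 and 1.29 in IOP, 1.85, 2.22 and 1.80 in ctrl-GCV and 2.44, 1.56 and 5.40 FPKM in IOP-GCV retinas. All 6 controls lay between 1.79 and 2.22 FPKM, while the 6 IOP-treated retinas lay between 1.29 and 5.40 FPKM, on both sides of the controls. The 2 highest values, in mice 3 and 5, were 115% and 200.3% above the fellow eye. The log2 fold change over both treatments was 0.29 (SE 0.24, limma adjusted p = 0.461), and 0.10 and 0.14 when the IOP-treated retina of mouse 5 or of mouse 3 was left out.

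Ankrd37 (chr8:45996908-46000414, minus strand), an ankyrin repeat protein known mainly as a HIF target, was at 16.5, 19.8 and 18.3 FPKM in ctrl, 17.9, 18.3 and 27.7 in IOP, 22.7, 22.4 and 18.6 in ctrl-GCV and 21.2, 22.2 and 21.0 FPKM in IOP-GCV retinas. Apart from the shallow IOP library of mouse 6 (27.7 FPKM), all libraries lay between 16.5 and 22.7 FPKM. The log2 fold change was 0.11 (95% interval -0.14 to 0.35) over both treatments, and 0.01 when that library was left out.

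**Figure D2:**
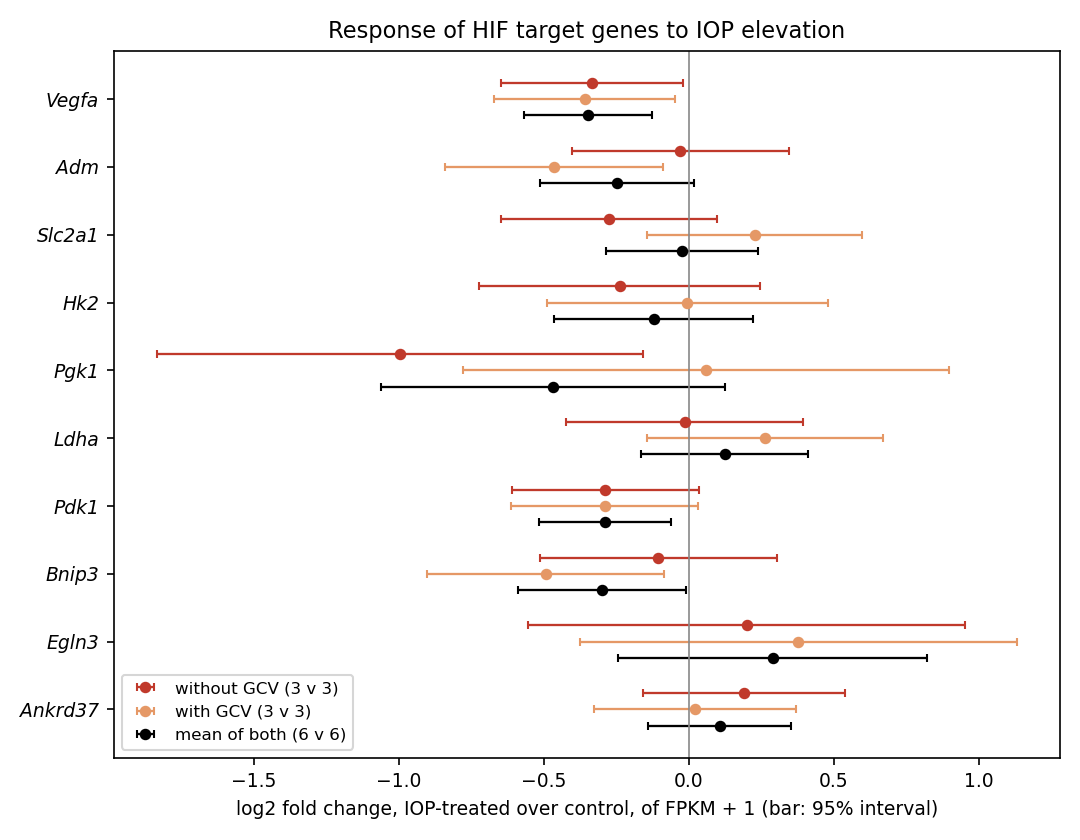
Log2 fold change of FPKM + 1, IOP-treated over control retinas, for the 10 genes without GCV (3 against 3), with GCV (3 against 3) and as the mean of both (6 against 6). Points are limma estimates and bars their 95% intervals. The black interval, for the mean of both, lies wholly below 0 for Vegfa, Pdk1 and Bnip3, of which Vegfa alone passed adjustment, and the interval of Pgk1 without GCV is the widest of its kind.

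By eye pair, 2 of the 10 genes, Vegfa and Pdk1, moved the same way in all 6 mice, both downward. Over all rows, 20.8% moved the same way in all 6 mice and 10.1% moved downward in all 6. The 3 IOP and 3 control libraries did not overlap for 1 of the 10 genes without GCV (Pgk1, against 20.5% of all rows) and for 4 of the 10 with GCV (Vegfa, Adm, Pdk1 and Bnip3, all lower in IOP-GCV, against 29.8%). Over both treatments, no gene of the 10 separated the 6 IOP-treated from the 6 control libraries, which 7.91% of all rows did.

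**Figure D3:**
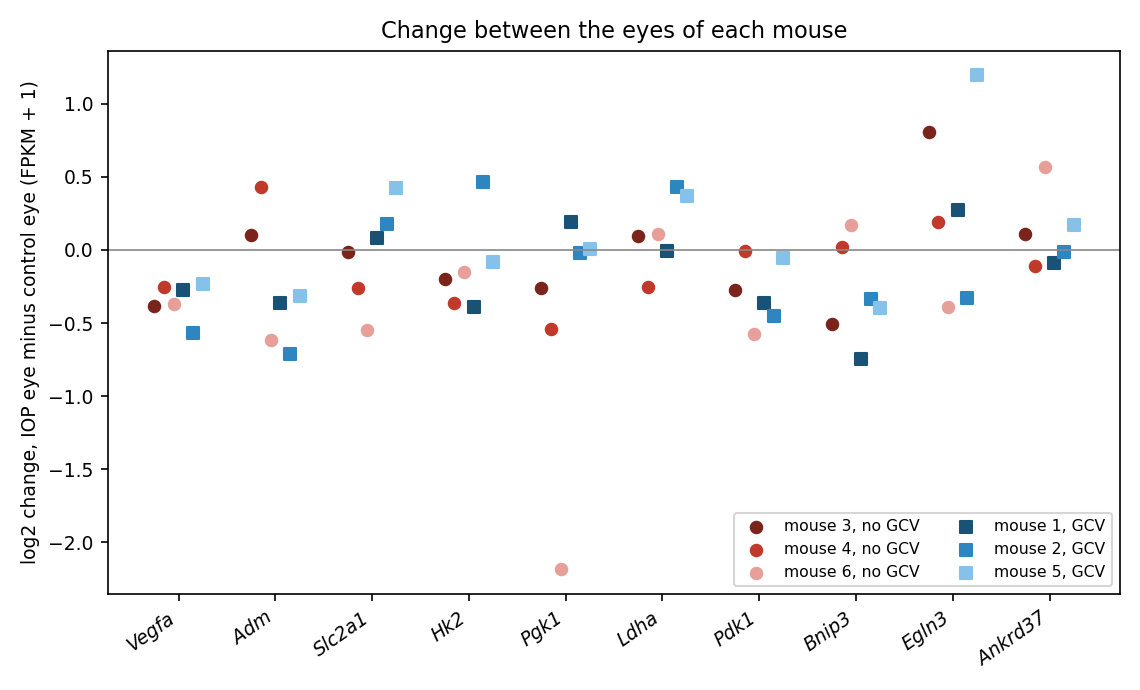
Log2 change of FPKM + 1, IOP eye minus control eye, in each of the 6 mice for the 10 genes. Circles are mice without GCV and squares are mice with GCV. All 6 points lie below 0 for Vegfa and Pdk1, circles lie below and squares above 0 for Slc2a1, and mouse 6 stands at -2.18 for Pgk1.

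The response to IOP elevation with GCV was compared with that without GCV by the interaction term, which none of the 10 genes and no row of the table passed (0.0% of 18509 rows, with 1.93% at an unadjusted p under 0.05). None of the 10 genes was below the unadjusted threshold. At a pseudocount of 1, the differences between the effects with and without GCV that were farthest from 0 were 1.05 for Pgk1 (SE 0.53, limma adjusted p = 0.997), which was 0.52 without the IOP retina of mouse 6, and 0.50 for Slc2a1 (SE 0.24, 95% interval -0.02 to 1.03, adjusted p = 0.997). For Adm the difference was -0.44, and -1.74 with a pseudocount of 0.1 (adjusted p = 0.9999). Slc2a1 was the only one of the 10 to move in opposite directions in every mouse of the 2 treatments, a pattern that 0.978% of all rows showed.

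The comparison of IOP-GCV with IOP retinas, which is between mice, gave no call among the 10 genes or among all rows (0.0%, with 4.18% at an unadjusted p under 0.05). Pgk1 was below the unadjusted threshold there and higher with GCV (2.59% of all rows were), with a log2 fold change of 0.997 (SE 0.38, limma unadjusted p = 0.0242, adjusted p = 0.819), and this comparison contains the value of 3.60 FPKM in mouse 6. Control retinas with and without GCV also gave no call (0.0%, with 1.59% at an unadjusted p under 0.05), and none of the 10 genes was below the unadjusted threshold. Among control retinas the log2 fold changes ranged from -0.24 for Slc2a1 to 0.21 for Ankrd37.

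Within the retina the 10 genes lay at very different levels. By mean FPKM over the 12 libraries, a measure per transcript length, the order was Ldha (649 FPKM), Slc2a1 (109), Bnip3 (87.7), Hk2 (84.2), Vegfa (28.9), Ankrd37 (20.5), Pgk1 (16.0), Pdk1 (10.7), Egln3 (2.36) and Adm (0.367). Ldha lay above all others in every library. Slc2a1, Bnip3 and Hk2 overlapped with each other in their ranges over libraries, as did each neighbouring pair from Vegfa down to Pdk1. Ankrd37 had a coefficient of variation of 14.7% and Ldha one of 12.4%, against 31.2% for Pgk1, 49.3% for Egln3 and 67.0% for Adm. Across the 12 libraries, which share their groups and mice, the pair of these genes with the highest Pearson correlation was Vegfa and Pdk1 (r = 0.79). Among the 12908 genes with a mean level of 1 FPKM or more, leaving out those of the 10, the values most like those of Vegfa across the 12 libraries were those of Ccsap (r = 0.95), Ap3m2 (r = 0.95) and Mvb12b (r = 0.95).

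The machinery that makes and removes HIF showed no call in 12 genes, against 12.2% of all rows. Hif1a, the oxygen-regulated alpha subunit whose protein rather than RNA is controlled by hydroxylation, was at 198 to 228 FPKM (median 219) in the 6 control and at 212 to 406 FPKM (median 236) in the 6 IOP-treated retinas. It was higher in the IOP eye of 6 of 6 mice, with a log2 fold change of 0.24 (SE 0.14, limma adjusted p = 0.265), which was 0.11 without the IOP retina of mouse 6. Arnt2, a neuronal partner of the alpha subunits, was at 3.61 to 4.92 FPKM in control and 1.40 to 4.76 FPKM in IOP-treated retinas (log2 fold change -0.47, SE 0.21, adjusted p = 0.158). With a library left out, Arnt2 passed in 1 of 12 fits, without the IOP retina of mouse 4. Its limma adjusted p ranged from 0.00357 in that fit to 0.287. Hif3a, at 0.219 to 0.827 FPKM, and Crebbp, a coactivator of HIF, had log2 fold changes of -0.17 and -0.18. The median over the 12 genes was 0.03.

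Among 29 further HIF targets, 3 rose and 2 fell over both treatments, with a median log2 fold change of 0.02. Of all rows 12.2% were called in this comparison (6.76% higher, 5.44% lower). Hmox1, which encodes the heme-degrading enzyme heme oxygenase, was at 3.50 to 6.40 FPKM (median 3.85) in control and 13.9 to 287 FPKM (median 27.6) in IOP-treated retinas, without overlap. Its log2 fold change was 3.04 (SE 0.58, limma adjusted p = 0.0119). Cxcr4, a chemokine receptor also carried by leukocytes, was at 0.932 to 1.25 FPKM in control and 1.67 to 21.7 FPKM in IOP-treated retinas (log2 fold change 2.13, SE 0.47, adjusted p = 0.0221).

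The rises of Hmox1 and Cxcr4 were found in 6 of 6 mice and in groups without overlap, in the libraries in which the leukocyte and microglia markers given above were higher, and the part of those cells was not tested. Epo, the gene for erythropoietin, was listed at 0 to 0.265 FPKM in control and 0.210 to 0.891 FPKM in IOP-treated retinas, higher in 5 of 6 mice (adjusted p = 0.0291), levels that rest on few fragments. With the mouse as a block its adjusted p was 0.0638 and the call was lost, as it was after quantile normalization (0.0521). Higd1a, a mitochondrial protein of the hypoxia response, fell from 16.7 to 25.1 FPKM (median 19.1) in control to 9.47 to 16.2 FPKM (median 13.0) in IOP-treated retinas (log2 fold change -0.59, SE 0.13, adjusted p = 0.0223). Tfrc, the transferrin receptor, fell from 37.8 to 50.2 FPKM to 21.8 to 36.3 FPKM (-0.55, SE 0.12, adjusted p = 0.0230). Both were lower in 6 of 6 mice.

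**Figure D4:**
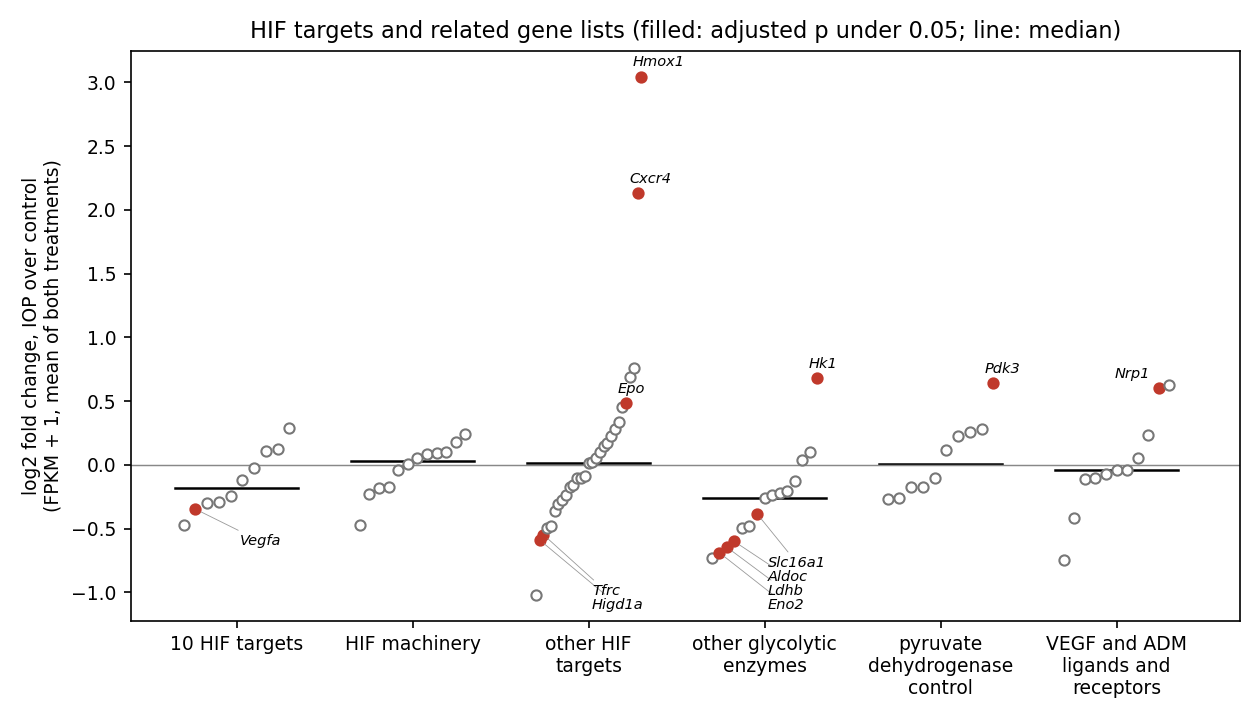
Log2 fold change of FPKM + 1, IOP-treated over control retinas as the mean of both treatments, for the 10 HIF targets and for 5 related gene lists. Each point is a gene, ordered by value within its list, filled points passed an adjusted p under 0.05 and are named, and horizontal lines are list medians. Vegfa is the single filled point of the first list, the 2 highest points are Hmox1 and Cxcr4, and the line of the glycolytic enzymes lies at -0.26.

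Of 15 other glycolytic enzymes and lactate carriers, 4 fell and 1 rose over both treatments (against 5.44% of all rows called lower and 6.76% higher), 12 of 15 had a lower fitted value, and the median was -0.26, against 0.01 for all rows. Hk1, the hexokinase of most tissues, was the one that rose, from 295 to 359 FPKM in control to 403 to 733 FPKM in IOP-treated retinas (log2 fold change 0.68, SE 0.15, limma adjusted p = 0.0234), in 6 of 6 mice. The genes that fell were Eno2, the neuronal enolase (279 to 394 FPKM in control and 132 to 249 FPKM in IOP-treated retinas, -0.69, adjusted p = 0.0363), Ldhb, the lactate dehydrogenase subunit of oxidative tissues (95.9 to 144 and 55.6 to 93.0 FPKM, -0.64, adjusted p = 0.0223), Aldoc, the aldolase of brain and retina (274 to 343 and 139 to 278 FPKM, -0.60, adjusted p = 0.0460), and Slc16a1, the lactate transporter MCT1 (43.3 to 60.8 and 34.4 to 47.1 FPKM, -0.38, adjusted p = 0.0375). With the mouse as a block 3 of the 5 calls held, for Hk1, Eno2 and Ldhb, and the adjusted p was 0.0591 for Aldoc and 0.0839 for Slc16a1. Eno2 lost its call after quantile normalization (adjusted p = 0.0511). Eno2 is a neuronal gene, and the part of the ganglion cell markers given above in its fall was not tested.

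Around the step that Pdk1 controls, 1 of 10 genes passed, against 12.2% of all rows. Pdk3, a kinase of the same enzyme, rose from 17.4 to 24.3 FPKM in control to 25.6 to 47.2 FPKM in IOP-treated retinas, without overlap and in 6 of 6 mice (log2 fold change 0.64, SE 0.16, limma adjusted p = 0.0339). Pdk1, at 7.77 to 14.1 FPKM, had -0.29. Pdha1, a subunit of pyruvate dehydrogenase, Dlat, its acetyltransferase component, and Pdp2, a phosphatase that reactivates it, had log2 fold changes of -0.17, -0.18 and -0.26 (adjusted p = 0.0788, 0.129 and 0.1004).

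Among 11 other ligands and receptors of the VEGF and adrenomedullin systems, 1 passed, against 12.2% of all rows. Nrp1, a co-receptor for VEGF and semaphorins, rose from 1.36 to 1.95 FPKM in control to 1.97 to 4.74 FPKM in IOP-treated retinas, in 6 of 6 mice (log2 fold change 0.60, SE 0.16, limma adjusted p = 0.0361), but with the mouse as a block the adjusted p was 0.0567 and none of the 11 passed. Flt1, the decoy-like receptor VEGFR1, was at 6.99 to 12.6 FPKM in control and 2.89 to 9.60 FPKM in IOP-treated retinas (-0.75, SE 0.25, adjusted p = 0.0776). With a library left out, Flt1 passed in 1 of 12 fits, without the IOP retina of mouse 4. Its limma adjusted p ranged from 0.00655 in that fit to 0.168. Vegfb, a paralog of Vegfa, was at 44.7 to 57.6 and 21.7 to 49.0 FPKM (-0.42, SE 0.17, adjusted p = 0.134), and Pgf, the placental growth factor that binds Flt1, at 0.468 to 0.960 and 0.900 to 4.68 FPKM (0.63, SE 0.20, adjusted p = 0.0644). With a library left out, Vegfb lay between -0.52 and -0.26 and Pgf between 0.43 and 0.73. Of the 12 called genes in these 5 lists, Hmox1 kept its call in all 12 fits that left out a library, and the other 11 kept it in between 3 (Eno2 and Nrp1) and 9 (Higd1a and Ldhb) of the 12, with an adjusted p of at most 0.106 in any of them (Aldoc). In none of the 5 lists did a gene pass the test within mice without GCV, within mice with GCV or in the interaction.

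HIF binds DNA at the core ACGTG or GCGTG, and the 250 bases before the RefSeq start site (GRCm38.p6, the most upstream start listed) were searched for these letters on both strands, with overlapping matches counted as 1 site. The palindrome CACGTG, an E-box, contains ACGTG on both strands and was counted once. At least 1 site was found for 9 of the 10 genes, against 51.1% of 13785 genes of the table with such a window, and ACGTG for 7 of the 10, against 20.0%. The 10 genes were chosen as known HIF targets, so these shares describe the choice and test nothing. The genes compared were not matched for base content. Bnip3 had 4 sites, Ldha and Ankrd37 had 3, Adm, Slc2a1, Hk2 and Pgk1 had 2, Pdk1 and Egln3 had 1 and Vegfa had 0. The windows of Ldha and Ankrd37 lay inside the gene spans given above, and that of Pdk1 reached into its span. The windows of Vegfa, the member that passed the test, and of Pgk1 and Bnip3, with closely spaced sites, are shown 5′ to 3′ on the strand of the gene, with matches on either strand in capitals (CACGT and CACGC are the matches on the other strand). They cover chr17:46032378-46032627 (minus strand), chrX:106186850-106187099 (plus strand) and chr7:138909507-138909756 (minus strand) and end at the base before the start site.
Vegfa: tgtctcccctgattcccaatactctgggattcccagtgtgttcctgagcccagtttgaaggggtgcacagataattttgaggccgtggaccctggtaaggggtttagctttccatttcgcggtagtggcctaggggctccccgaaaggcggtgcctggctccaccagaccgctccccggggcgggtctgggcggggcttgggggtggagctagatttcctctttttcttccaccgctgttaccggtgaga
Pgk1: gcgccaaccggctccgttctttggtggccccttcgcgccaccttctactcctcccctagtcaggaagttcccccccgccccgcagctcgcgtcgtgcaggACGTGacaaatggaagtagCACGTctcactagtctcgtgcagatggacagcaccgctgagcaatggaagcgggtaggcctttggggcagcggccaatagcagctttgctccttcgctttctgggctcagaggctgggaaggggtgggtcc
Bnip3: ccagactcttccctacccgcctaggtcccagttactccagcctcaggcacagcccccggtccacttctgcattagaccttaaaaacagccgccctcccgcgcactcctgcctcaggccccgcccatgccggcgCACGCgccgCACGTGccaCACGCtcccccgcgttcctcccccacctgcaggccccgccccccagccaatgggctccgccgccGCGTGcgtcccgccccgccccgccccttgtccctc

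A match is a description of letters, not a bound site, and the absence of one says only that these letters are not in these 250 bases.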

How the data were processed

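Stranded, poly(A)-selected libraries of 12 retinas were sequenced as paired ends, and the deposited table holds 1 FPKM value per gene symbol and library. The unit was inferred from the values. According to the submitters' processing notes the authors used TopHat2, Bowtie2, Cufflinks and Cuffdiff with build mm10, and the methods of the study name HOMER counts on RefSeq exons. Which of these made the table is not given in the sources used here, and no test or threshold for RNA-seq is named there.

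The deposited FPKM values were put on the scale log2(FPKM + 1). A linear model with a mean for each of the 4 groups was fitted by limma 3.58.1 (R 4.3.3), letting the variance follow the level, and p-values were adjusted by Benjamini-Hochberg over the 18509 rows above 0 in at least 1 library. A fold change on this scale understates the change of low genes. The 10 genes and all lists were chosen with earlier results of these data known. Named from each list were the 4 genes with the smallest p over both treatments and every called gene, and for Vegfa the 3 most correlated genes. 1 more HIF target had been listed and is not reported here.

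Both eyes with the same number are from 1 mouse, so a fit with the mouse as a block was made as well. Deviations of the eyes from their group means correlated at -0.12 to 0.39 over 12910 genes.

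The depth estimate rests on small values of 1904 genes with 1 transcript, of which 80.5% to 89.0% fell within 0.15 of a whole number of fragments. Other alternatives were a pseudocount of 0.1, a minimum of 1 FPKM in 3 libraries, median-ratio scaling, quantile normalization, only the groups compared, no variance trend, an adjusted p under 0.1 and each library left out. Median-ratio scaling could move little, because the library offsets it removes lay between -0.0019 and 0.0197 on the log2 scale. Sequences are from RefSeq and gene positions from GENCODE vM21. Python 3.11.15 was used with numpy 2.4.6, pandas 2.3.3 and, for figures, matplotlib 3.10.9.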

Additional observations from a re-analysis of the deposited data

Results flagged for a closer look

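Slc2a1, the gene for the glucose transporter GLUT1, was flagged because every mouse without GCV moved one way after IOP elevation and every mouse with GCV the other. The log2 change from the control to the IOP eye was -0.01, -0.26 and -0.55 in mice 3, 4 and 6 and 0.08, 0.18 and 0.43 in mice 1, 2 and 5. The difference between these effects was 0.50 on the log2 scale (SE 0.24, limma unadjusted p = 0.0591, adjusted p = 0.997, and 0.992 with the mouse as a block), so it did not pass the test, and 0.978% of all rows showed opposite directions of this kind.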

How the results depend on the processing

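Of the fits for single genes under other settings, 826 kept the direction and the side of the threshold, 83 lost a call, 10 gained one and 20 changed sign. Over both treatments, 1 of the 10 genes was called. It was 2 at an adjusted p under 0.1, which added Pdk1, 0 without the variance trend, where Vegfa had an adjusted p of 0.0506, and 0 to 2 when a library was left out. The 5 further lists gave 12 calls over both treatments, 19 at an adjusted p under 0.1, and 1 to 23 with a library left out, the latter without the IOP retina of mouse 4. They gave 0 calls without GCV, but 1 at an adjusted p under 0.1, 1 with the pseudocount of 0.1, 1 after quantile normalization and 0 to 10 with a library left out. With GCV they gave 0 calls, but 3 at an adjusted p under 0.1, 1 with the filter of 1 FPKM, 1 with the pseudocount of 0.1 and 0 to 4 with a library left out. Without GCV the 10 genes had 0 calls, and 0 to 1 with a library left out, where Vegfa without the IOP retina of mouse 4 had an adjusted p of 0.0495. In that retina the ganglion cell markers summed to 780 FPKM (801 in its control eye), against 170 and 350 in the IOP retinas of mice 3 and 6. Its microglia and macrophage sum (284 FPKM) and leukocyte sum (324 FPKM) were the lowest of the IOP group. The part of this in the fits without it was not tested.

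The 20 sign changes were in effects that had not been called. Without GCV, Adm was -0.03 and 0.0794 with the pseudocount of 0.1, and with a library left out it ranged from -0.20 to 0.18, Ldha from -0.13 to 0.13, Bnip3 from -0.29 to 0.10, Egln3 (0.20) from -0.0927 to 0.47 and Ankrd37 (0.19) from -0.0058 to 0.30. With GCV, Ankrd37 was 0.02 and -0.0076 after quantile normalization, and with a library left out it ranged from -0.0672 to 0.0706, Hk2 from -0.15 to 0.23 and Pgk1 from -0.0571 to 0.22. Slc2a1 over both treatments ranged from -0.10 to 0.0362.

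With the mouse as a replicate block, Vegfa over both treatments kept its log2 fold change of -0.35 with an adjusted p of 0.0441, and among the 10 genes and the 5 further lists the block changed no call other than those of Epo, Aldoc, Slc16a1 and Nrp1. Among the cell markers, over both treatments, it ended the calls of the 6 ganglion cell genes, Rlbp1 and Csf1r and added Cryba1. The values of Adm rest on few fragments, and with the pseudocount of 0.1 its effect with GCV was -1.66 and its interaction -1.74.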

Other observations

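Gapdh, the glycolytic enzyme often used as a reference gene, was listed at 3.07 to 5.12 FPKM in ctrl retinas, far under Pkm (1438 to 1600 FPKM) and Ldha (594 to 677 FPKM) of the same pathway, and was singled out after its values had been seen. Of the 50-base stretches of its transcript, 58.4% also occur in other annotated genes, as do 68.0% for Pgk1 (15.9 to 19.9 FPKM), 49.5% for Eno1, 41.5% for Pgam1 and 59.1% for Bnip3, which lay at 84.3 to 95.1 FPKM. Slc2a3, the neuronal glucose transporter GLUT3, and Pfkm, the muscle-type phosphofructokinase, were also singled out after their values had been seen. Their log2 fold changes over both treatments were -1.02 (adjusted p = 0.0607) and -0.73 (adjusted p = 0.0579) by limma, neither of which passed.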
